A study of Mus musculus with 4 samples.

Results

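The genes described here encode CD200 and inhibitory checkpoints of myeloid cells, read on Affymetrix arrays of mouse dendritic cells treated with SAHA. The 10 members are Cd200, Cd200r1, Cd47, Sirpa, Lilrb4, Pirb, Havcr2, Cd300a, Ptpn6 and Lair1, out of 19337 genes annotated on the array. Every probe set annotated to them was taken, which gave 24 of 45101 probe sets. Among probe sets annotated to a gene alone, the one with the highest mean of the 4 arrays was used to read it, and 9 of the 10 members had such a probe set. Lilrb4, now named Lilrb4a, had only a probe set shared with Lilr4b.

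The treated cells received SAHA (vorinostat, an inhibitor of histone deacetylases) for 12 hours at a dose written as 500 nm in the labels, and the control cells received diluent for as long, with 2 arrays in each group. Both groups were CD11c-selected cells of a stated purity of 95%, grown for 7 days from C57BL/6 bone marrow in GM-CSF and IL-4 at 10 ng/ml each, with marrow of at least 3 mice in each experiment. The arrays are called biological replicates without a statement that each came from its own culture, so the p-values reflect array-to-array spread, which may be technical. The age and sex of the mice are not given in the sources used here. Of 10 dendritic cell markers 9 lay above the array median on all 4 arrays, among them Itgax, which encodes CD11c, the invariant chain Cd74, Zbtb46 and the class II chains H2-Aa and H2-Ab1, whereas Cd209a lay below it on all 4. For a single gene, exact two-sided permutation of 2 against 2 arrays gives no p below 0.333, so precision is bounded by how few arrays there are.

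Myeloid cells carry inhibitory receptors that raise the threshold for activation. Most of these, among them SIRP alpha, PIR-B, gp49B (the product of Lilrb4a), CD300a and LAIR-1, hold tyrosine motifs (ITIMs) in the cytoplasmic tail that recruit the phosphatases SHP-1, encoded by Ptpn6, and SHP-2. The CD200 receptor has no such motif and signals through the adaptors DOK1 and DOK2 and the Ras GTPase-activating protein RASA1. Dendritic cells are known to carry several of these receptors and, in part, their ligands CD200 and CD47.

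Of the 9 members with a probe set of their own, Cd200 fell, Cd300a rose and 7 did not pass the test (limma, Benjamini-Hochberg adjusted p under 0.05 over 18194 genes). Over all genes 2.23% passed, 1.52% on the higher and 0.709% on the lower side. At an unadjusted p under 0.05 there were 3 members, the third being Sirpa, and 18.1% of all genes. The groups did not overlap for 4 members, Cd200r1 and Cd300a on the higher and Cd200 and Sirpa on the lower side, whereas this held for 50.7% of all genes, 21.1% on the higher and 29.6% on the lower side. Of the 9 changes 4 were above 0 and 5 below, with a median log2 change of -0.02, against -0.05 over all genes.

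**Figure D1:**
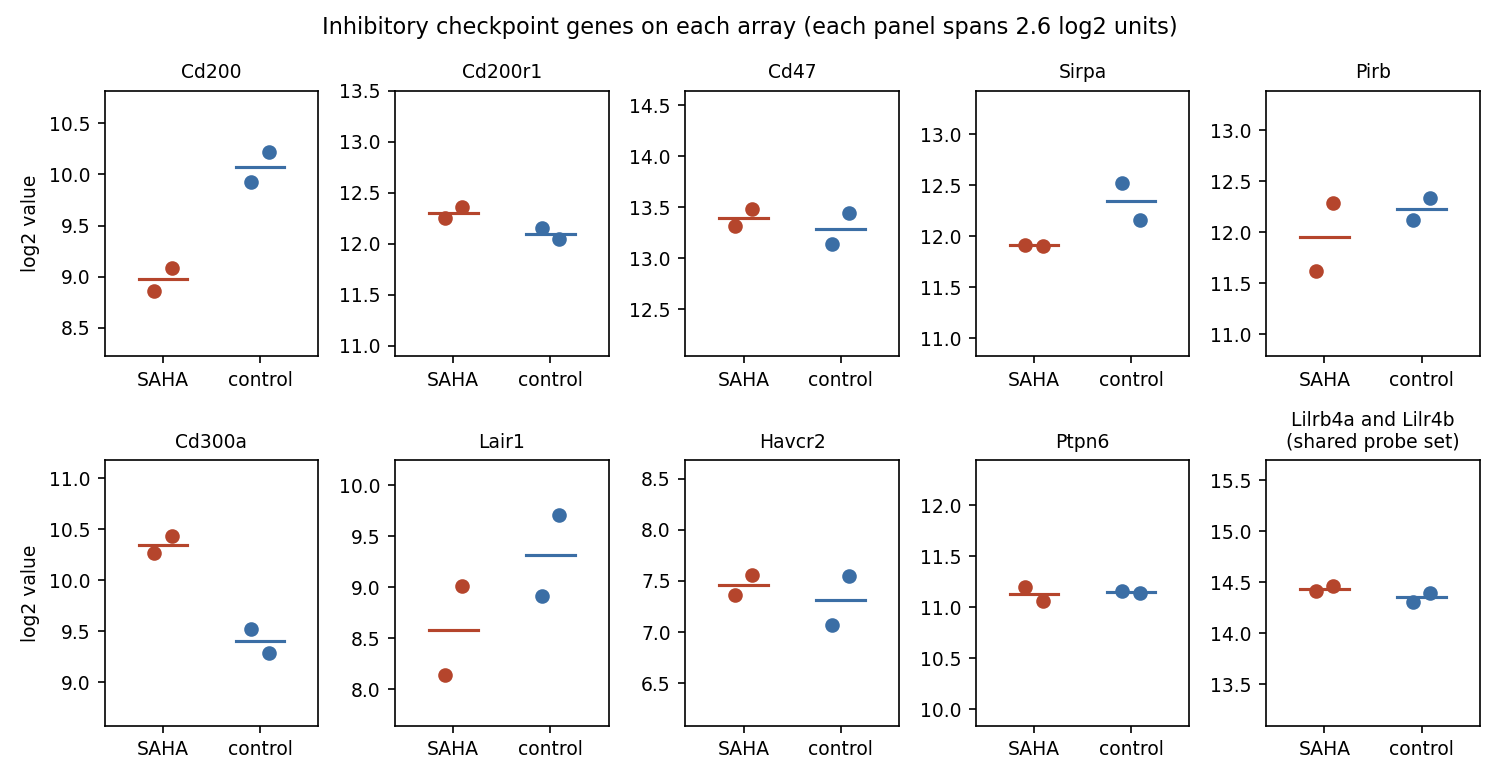
Log2 value of each member (vertical axis) on the SAHA arrays (left, red) and control arrays (right, blue), with a point per array and a line at the group mean. Each panel spans the same number of log2 units. The last panel is the probe set shared by Lilrb4a and Lilr4b. The Cd200 points lie lower with SAHA and the Cd300a points higher, each without overlap. Those of Sirpa (lower), Cd200r1 and the shared probe set (both higher) also do not overlap, and 50.7% of all genes had groups without overlap.

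Cd200 encodes a membrane glycoprotein that restrains myeloid cells through the CD200 receptor. It was at 8.86 and 9.08 log2 units on the SAHA arrays, against 9.92 and 10.22 on the control arrays. Both SAHA values lay below both control values, and the gap between the groups was wider than the distance between the arrays of either. The fall was 2.14-fold, a log2 change of -1.10 ± 0.17 (SE, adjusted p = 0.0361), and 1.84% of genes changed by as much or more in either direction. Cd200 had 1 probe set, so no second one bears on it. The call was lost without SAHA replicate 1 (adjusted p = 0.197), SAHA replicate 2 (0.0874) or control replicate 2 (0.0630), and when every probe set was tested on its own (0.0683), with a change of -0.95 to -1.25 as single arrays were left out.

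The promoter of Cd200 is shown because this gene fell, as the RefSeq sequence from 250 bases before to 50 bases after the annotated start (GRCm38.p6, chr16:45409004-45409303, minus strand), and that of Cd300a because it rose (GRCm38.p6, chr11:114889791-114890090, plus strand). Capitals mark matches, on either strand, to the 5 motifs searched. These were the GC box (GGGCGG), a core bound by the myeloid factor PU.1 (GAGGAA), the AP-1 site (TGANTCA), the TATA box (TATAAA) and the CCAAT box, and no 2 matches overlapped.
Cd200: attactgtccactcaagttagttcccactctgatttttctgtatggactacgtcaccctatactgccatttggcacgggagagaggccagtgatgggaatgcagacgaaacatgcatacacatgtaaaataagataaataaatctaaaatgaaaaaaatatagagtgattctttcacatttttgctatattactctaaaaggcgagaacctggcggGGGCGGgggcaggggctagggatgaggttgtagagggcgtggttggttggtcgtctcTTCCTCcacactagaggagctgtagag
Cd300a: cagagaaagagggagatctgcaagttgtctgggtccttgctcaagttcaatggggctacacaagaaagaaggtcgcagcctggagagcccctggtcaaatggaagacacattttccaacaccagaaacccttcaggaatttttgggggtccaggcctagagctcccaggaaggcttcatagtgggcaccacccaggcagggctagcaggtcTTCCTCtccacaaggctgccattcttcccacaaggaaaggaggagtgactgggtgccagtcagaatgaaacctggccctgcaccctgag
In Cd200 the matches were 1 GC box at bases 217 to 222 and 1 PU.1 core, on the opposite strand, at bases 274 to 279, counted from the first base printed. The Cd300a window held a PU.1 core, also on the opposite strand, at bases 212 to 217, and no GC box. Of 32851 mouse promoters of this length 35.7% held a GC box, 28.3% a PU.1 core, 7.81% an AP-1 motif, 13.6% a TATA box and 37.4% a CCAAT box. The GC content was 45.0% with 8 CpG dinucleotides for Cd200 and 54.7% with 1 for Cd300a, against medians of 52.7% and 7 over all promoters. A match to these letters is a description of the sequence, and binding was not measured.

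Cd200r1, which encodes the inhibitory CD200 receptor, did not pass. It was at 12.25 and 12.36 log2 units with SAHA, against 12.15 and 12.04 in control cells. The groups did not overlap, but the difference was small, with a log2 change of 0.20 ± 0.11 (SE, adjusted p = 0.406) and a 95% interval for the ratio of 0.952 to 1.39. A second Cd200r1 probe set gave 0.16, with overlapping groups.

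Members of the same receptor family that signal differently did pass. Cd200r3 and Cd200r4 encode receptors without an inhibitory tail that in mice pair with the activating adaptor DAP12, the product of Tyrobp. Cd200r4 was at 11.58 and 11.79 log2 units with SAHA, against 10.53 and 10.84 in control cells, a rise of 1.99-fold (log2 change 1.00 ± 0.16, SE, adjusted p = 0.0392). Cd200r3 was at 7.996 and 8.49 log2 units with SAHA, against 7.00 and 7.11 in control cells, a rise of 2.27-fold (1.18 ± 0.20, adjusted p = 0.0435). For both, each SAHA array lay above each control array. A further Cd200r3 probe set gave 0.74 (adjusted p = 0.0681 over all probe sets), with both control values under the 25th percentile of their arrays. Tyrobp itself was at 13.82 and 13.80 log2 units with SAHA, against 13.94 and 13.89 in control cells (log2 change -0.11 ± 0.09, adjusted p = 0.586). The Cd200r3 call was lost without any 1 of the 4 arrays (adjusted p of 0.0570 to 0.155), and that of Cd200r4 was lost without SAHA replicate 1 (0.139), SAHA replicate 2 (0.144) or control replicate 1 (0.0555).

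Cd200r3 is also known as a receptor of mast cells and basophils, so 9 markers of those cells were read, a list added after the values were seen. None passed in limma, none had an unadjusted p under 0.05, and Mcpt8, Fcer1a, Ms4a2 and Mcpt1 lay under the 25th percentile of all 4 arrays. Of the 9 marker changes 8 were below 0 and 1 above, with a median of -0.13. For 4 markers the groups did not overlap, all lower with SAHA, which held for 29.6% of all genes. The summed linear level of the 9 markers was 292 and 277 on the SAHA arrays, against 394 and 312 on the control arrays. Of the 9 markers 7 lay below the median of all 4 arrays, and Gata2, a transcription factor found in other cells too, gave 142 and 117 of the sums with SAHA and 231 and 135 in control cells. The part of such cells in the Cd200r3 change was not tested.

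Cd200r1, Cd200r4, Cd200r2 and Cd200r3 follow each other on chromosome 16 in the RefSeq annotation, and Cd200 and Cd47 lie on the same chromosome. The promoters of Cd200r3 (GRCm38.p6, chr16:44943428-44943727, plus strand) and Cd200r4 (GRCm38.p6, chr16:44820478-44820777, plus strand) are shown because both genes rose. Capitals mark the stretches of 15 or more bases that the pair has in common.
Cd200r3: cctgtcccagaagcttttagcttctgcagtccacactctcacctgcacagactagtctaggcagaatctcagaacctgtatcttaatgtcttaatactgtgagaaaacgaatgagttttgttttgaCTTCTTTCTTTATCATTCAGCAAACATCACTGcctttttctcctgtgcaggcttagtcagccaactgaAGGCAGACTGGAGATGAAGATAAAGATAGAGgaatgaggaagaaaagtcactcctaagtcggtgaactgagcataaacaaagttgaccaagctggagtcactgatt
Cd200r4: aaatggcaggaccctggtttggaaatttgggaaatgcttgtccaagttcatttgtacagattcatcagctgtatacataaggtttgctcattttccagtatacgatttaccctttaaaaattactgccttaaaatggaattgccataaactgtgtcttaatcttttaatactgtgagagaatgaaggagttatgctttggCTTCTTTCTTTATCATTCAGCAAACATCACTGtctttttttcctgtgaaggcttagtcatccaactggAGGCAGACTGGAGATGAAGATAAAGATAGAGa
There were 2 such stretches, of 32 and 31 bases, in the same order and on the same strand. These receptors are close paralogs, and how far their probe sets share targets was not tested.

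The adaptor arm of the CD200 receptor was read through Dok1, Dok2 and Rasa1. Dok2 was at 10.02 and 10.08 log2 units with SAHA, against 11.47 and 11.04 in control cells. The groups did not overlap, and Dok2 fell 2.30-fold (log2 change -1.20 ± 0.17, SE, adjusted p = 0.0293). The call was lost without SAHA replicate 1 (0.155) or SAHA replicate 2 (0.0928). Dok1, the related adaptor, gave -0.24 (adjusted p = 0.463) and Rasa1 gave -0.46 (adjusted p = 0.182), both with groups that did not overlap.

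**Figure D2:**
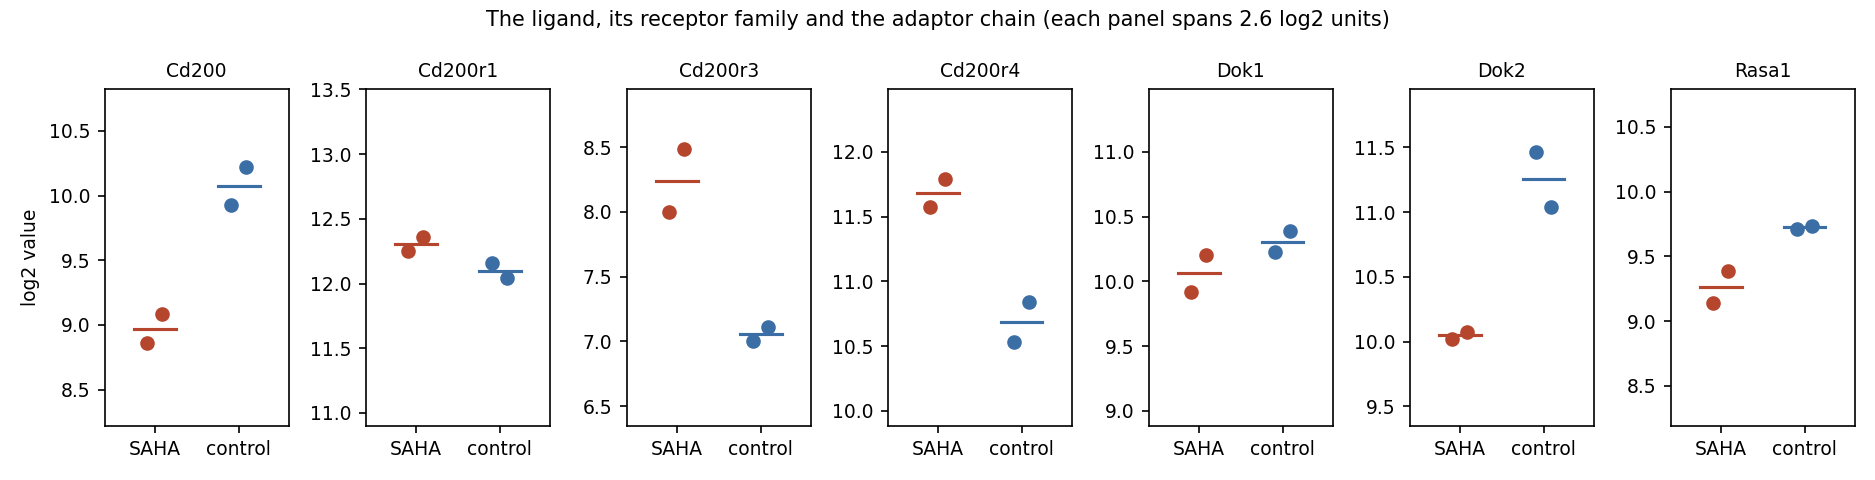
Log2 value (vertical axis) of Cd200, its receptor family and the adaptor arm on the SAHA arrays (left, red) and control arrays (right, blue), with a point per array and a line at the group mean. Cd200 and Dok2 lie lower with SAHA, Cd200r3 and Cd200r4 higher, and Cd200r1 differs by 0.20 log2 units.

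CD47 is a widely expressed ligand that binds SIRP alpha on phagocytes as a signal against engulfment. Its gene Cd47 was at 13.31 and 13.48 log2 units with SAHA, against 13.13 and 13.45 in control cells. The groups overlapped, with a log2 change of 0.10 ± 0.14 (SE, adjusted p = 0.720) and a ratio of 0.856 to 1.35 (95% interval). The other 4 Cd47 probe sets gave log2 changes of 0.04 to 0.52. Those at 0.04 and 0.23 were dim, with values of 4.89 to 5.71 near the array medians of 5.34 to 5.35, and their groups overlapped. For the brighter 2 the groups did not overlap, as for 47.1% of all probe sets (20.3% on the higher and 26.8% on the lower side). The first was at 12.68 and 12.82 with SAHA against 12.20 and 12.33 in control cells, and the second at 11.91 and 12.24 against 11.44 and 11.67. Neither passed when all probe sets were tested, where 0.537% did (adjusted p of 0.137 and 0.216), and the choice of the probe set therefore sets the size of the Cd47 change.

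Sirpa, the gene of the CD47 receptor, was at 11.92 and 11.90 log2 units with SAHA, against 12.52 and 12.16 in control cells. The SAHA values lay below both control values, but the log2 change of -0.43 ± 0.15 (SE, adjusted p = 0.200) did not pass. Further Sirpa probe sets gave larger differences. The first was at 10.07 and 9.60 with SAHA, against 10.97 and 10.72 in control cells (log2 change -1.01 ± 0.20, SE, adjusted p = 0.101 over 45037 probe sets). The next was at 11.44 and 11.12 with SAHA, against 12.21 and 11.91 in control cells (-0.78 ± 0.17, adjusted p = 0.114). In all 3 Sirpa probe sets the SAHA side was lower without overlap, which held for 26.8% of all probe sets, and none passed.

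Cd300a encodes a receptor for phosphatidylserine and phosphatidylethanolamine, lipids that dying cells expose. It was at 10.27 and 10.43 log2 units with SAHA, against 9.52 and 9.28 in control cells. The groups did not overlap and stood further apart than the arrays of either group. The rise was 1.93-fold, a log2 change of 0.95 ± 0.15 (SE, adjusted p = 0.0400), and 2.88% of genes changed by as much or more in either direction. A second Cd300a probe set was at 5.15 and 5.002 with SAHA, against 4.71 and 4.62 in control cells, a change of 0.41 in the same direction (adjusted p = 0.257 over all probe sets). With the probe sets averaged the change was 0.68 and the call was lost (adjusted p = 0.0729). It was also lost with every probe set tested on its own (0.0747) and without SAHA replicate 1 (0.173), SAHA replicate 2 (0.160) or control replicate 2 (0.0791).

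Cd300a lies in a cluster of CD300 receptor genes on chromosome 11. Of its 3 nearest protein-coding genes on each side in the RefSeq annotation 4 were measured, and none passed in limma (1 at an unadjusted p under 0.05). Cd300lb, the next gene and an activating receptor, gave -0.30 (adjusted p = 0.485), and Cd300ld, also activating, gave 0.33 (0.527), both with overlapping groups. On the other side Gprc5c, an orphan G protein-coupled receptor, gave 0.81 (0.0650) and Btbd17 gave -0.35 (0.372), both without overlap. Around Cd200, on chromosome 16, 3 neighbours were measured, all on the same side of it, and none passed in limma (2 at an unadjusted p under 0.05, Atg3 and Slc35a5). These were Btla, an inhibitory receptor of lymphocytes, at -0.09 (0.906), the autophagy gene Atg3 at 0.49 (0.0940) and the sugar transporter gene Slc35a5 at 0.51 (0.208). The neighbours were named after their values were seen.

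PIR-B binds MHC class I and restrains dendritic cells and macrophages. The probe set annotated to Pirb alone was at 11.62 and 12.28 log2 units with SAHA, against 12.12 and 12.33 in control cells. These overlapped, with a log2 change of -0.28 ± 0.22 (SE, adjusted p = 0.551) and a ratio of 0.571 to 1.20 (95% interval). A further 3 probe sets are annotated to Pirb together with genes of its activating relatives, such as Pira1 and Pira2, and cannot be given to 1 gene. The probe set 1418809_at was at 9.99 and 10.59 with SAHA, against 11.60 and 11.49 in control cells, without overlap, a change of -1.25 ± 0.21 (SE, adjusted p = 0.0733 over all probe sets). The probe sets 1420464_s_at and 1452487_x_at gave -0.55 (0.279) and -0.53 (0.302), also without overlap. All 4 were below 0, and those shared with activating relatives were further below it than the one of Pirb alone.

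The 1 probe set of Lilrb4a, 1420394_s_at, is shared with Lilr4b, its neighbouring relative, so no value was given to either gene. It was at 14.41 and 14.46 log2 units with SAHA, against 14.30 and 14.40 in control cells. The groups did not overlap, and the change was 0.09 ± 0.08 (SE, adjusted p = 0.651 over all probe sets). This probe set lay near the top of the scale, where the highest value of any array was 14.97.

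Lair1 encodes a receptor for collagens. It was at 8.14 and 9.01 log2 units with SAHA, against 8.92 and 9.71 in control cells. The arrays within each group differed by more than the group means did, and the log2 change of -0.74 ± 0.36 (SE, adjusted p = 0.344) did not pass. The 2 further Lair1 probe sets gave -0.70, without overlap, and -0.42, with overlap. In every Lair1 probe set replicate 1 was the lower array of its group. With a replicate block in limma the log2 change was -0.74 ± 0.12 (SE, adjusted p = 0.000812). The labels do not tie replicate numbers to shared cultures, so that fit decided no call.

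Havcr2 encodes TIM-3, which on dendritic cells is known to limit responses to nucleic acids. Its 1 probe set was at 7.36 and 7.55 log2 units with SAHA, against 7.06 and 7.55 in control cells. The groups overlapped (log2 change 0.15 ± 0.21, SE, adjusted p = 0.741), and the 95% interval of the ratio, 0.784 to 1.56, spans falls and rises.

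Ptpn6, the gene of the phosphatase that most of these receptors share, was at 11.20 and 11.06 log2 units with SAHA, against 11.16 and 11.14 in control cells. The log2 change was -0.02 ± 0.12 (SE, adjusted p = 0.946) with a ratio of 0.803 to 1.21 (95% interval), and a second probe set gave 0.00. Both Ptpn6 probe sets had overlapping groups.

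**Figure D3:**
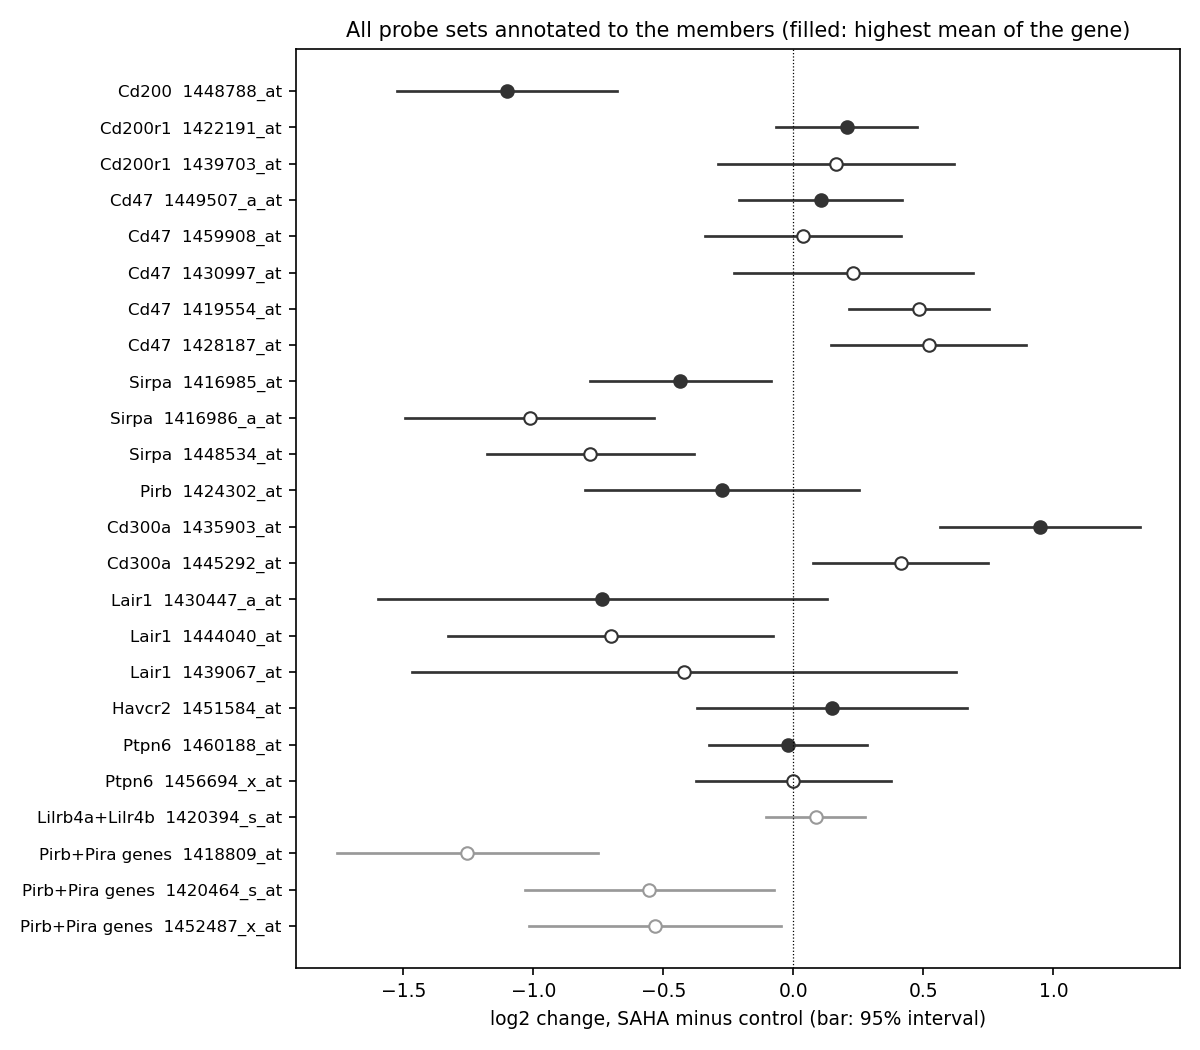
Log2 change, SAHA minus control (horizontal axis), of all 24 probe sets annotated to the members, with 95% intervals from the test of every probe set. Filled points are the probe sets that read a gene, and grey ones are shared between genes. The points of Sirpa, of Pirb alone and of Pirb shared with Pira genes all lie below 0, but the interval of Pirb alone crosses 0. The points of Cd47 range from 0.04 to 0.52.

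Other inhibitory receptors of myeloid cells were read from a list of 18, of which 17 were measured. Of these 2 fell, none rose and 15 did not pass, with a median log2 change of -0.14. Cd22, a sialic acid-binding receptor best known from B cells, was at 7.68 and 7.51 log2 units with SAHA, against 10.06 and 9.31 in control cells, a fall of 4.26-fold (log2 change -2.09 ± 0.26, SE, adjusted p = 0.0208). Milr1, the mast cell receptor Allergin-1, was at 8.31 and 8.70 with SAHA, against 9.46 and 9.68 in control cells, a fall of 2.09-fold (-1.07 ± 0.18, adjusted p = 0.0447). For neither did the groups overlap. A second Cd22 probe set gave -2.55, also without overlap (limma adjusted p = 0.0340 over all probe sets). Clec4a2, the lectin DCIR, had the next largest change at -0.84 (0.0716), and a second probe set gave -1.12 (0.0851 over all probe sets). The Cd22 call was lost without SAHA replicate 1 (0.0877) or SAHA replicate 2 (0.0667), and that of Milr1 without SAHA replicate 1 (0.240), SAHA replicate 2 (0.0787) or control replicate 2 (0.0897). The B cell markers Cd79a, Cd79b and Ms4a1 lay below the array median on all 4 arrays and gave log2 changes of -0.34 (adjusted p = 0.207, without overlap), -0.16 (0.599, without overlap) and -0.38 (0.430, with overlap), and their part in the Cd22 change was not tested.

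Among 12 measured of 18 paired activating receptors and adaptors, Cd200r3 and Cd200r4 rose, none fell and 10 did not pass (median 0.04). The list includes the triggering receptors Trem1, Trem2 and Trem3 and the adaptors Tyrobp, Fcer1g and Hcst. Sirpb1a, an activating relative of Sirpa, had the next largest change at -0.90 ± 0.48 (SE, adjusted p = 0.385), with SAHA values of 10.65 and 12.15 that overlapped the control values of 11.94 and 12.65. Its change was -0.15 without SAHA replicate 1 and -1.65 without SAHA replicate 2. Trem2 gave -0.69 (adjusted p = 0.0553), without overlap. Of the 12 changes in this list 6 were above 0 and 6 below. Of 19 measured signalling partners, such as the phosphatases Ptpn11 (SHP-2) and Inpp5d (SHIP1) and the kinases Syk and Src, 2 fell, none rose and 17 did not pass (median -0.04). These were Dok2 and Src, a kinase that phosphorylates such motifs. Src was at 6.76 and 6.95 log2 units with SAHA, against 7.84 and 7.92 in control cells, a fall of 2.03-fold (-1.02 ± 0.16, adjusted p = 0.0378), with a further probe set at -1.04, and its call was lost without SAHA replicate 1 (0.236), SAHA replicate 2 (0.108) or control replicate 2 (0.0624). Ptpn11 gave 0.13 and Inpp5d gave 0.02, and the Src-family kinase Fgr gave -0.97 (0.0852). A further Fgr probe set also gave -0.97 (limma adjusted p = 0.178 over all probe sets).

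None of the 17 measured ligands passed in limma, with 3 at an unadjusted p under 0.05 and a median of -0.01. Mag, a myelin glycoprotein that binds PIR-B, had a change of -0.90 (adjusted p = 0.102), and Thbs1, the CD47 ligand thrombospondin-1, of 0.79 (0.124), both without overlap. A further Thbs1 probe set gave 0.95 (limma adjusted p = 0.160 over all probe sets). Apoe, a ligand reported for human LILRB4, was at 6.46 and 9.07 log2 units with SAHA, against 7.45 and 9.47 in control cells, with arrays of a group further apart than the group means (-0.69 ± 0.93, adjusted p = 0.728).

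**Figure D4:**
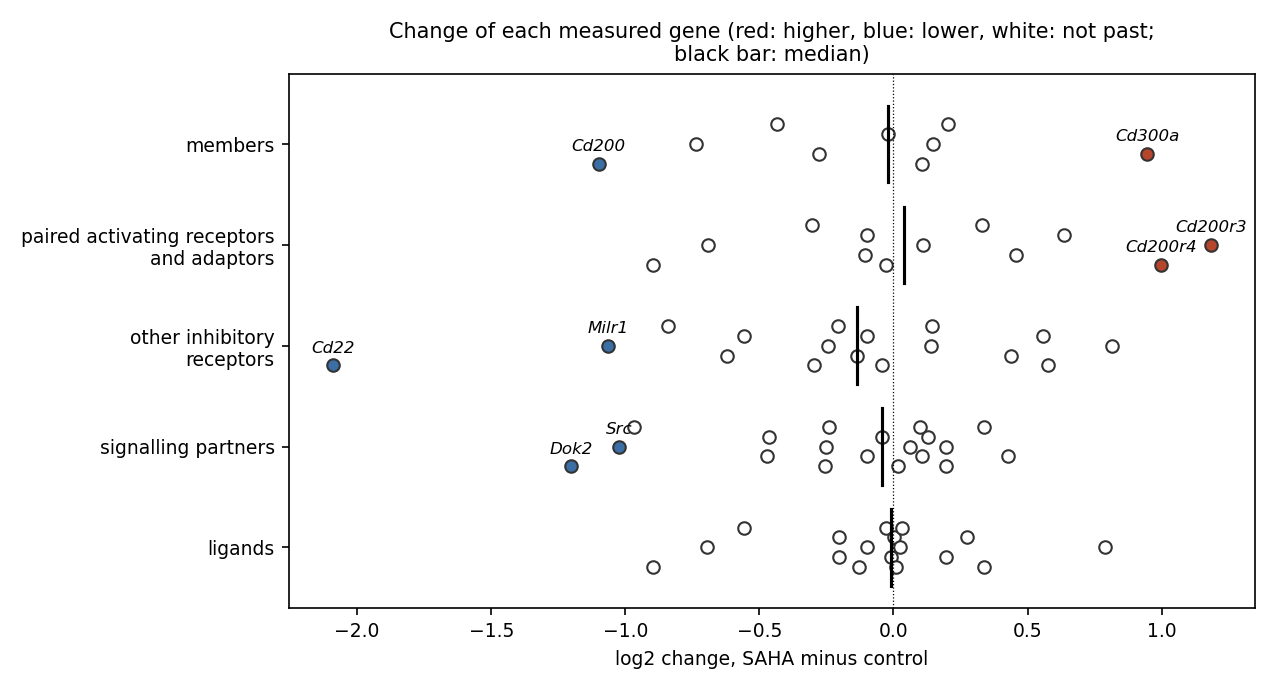
Log2 change, SAHA minus control (horizontal axis), of each measured member and of each gene of the 4 lists, a point per gene. Coloured, named points passed the test (red higher, blue lower), white ones did not, and black bars are list medians, which lie between -0.14 and 0.04.

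The genes whose values over the 4 arrays lay nearest those of Cd200, each gene centred on its own mean, were Spsb1, Cd1d1 and Cdk14, at Euclidean distances of 0.06, 0.09 and 0.11 log2 units among 9096 genes above the median level. Cd1d1 encodes the lipid-presenting molecule CD1d and was at 10.41 and 10.58 log2 units with SAHA, against 11.40 and 11.65 in control cells (log2 change -1.03). Spsb1, a SOCS box protein, and Cdk14, a cyclin-dependent kinase, each had a change of -1.05. With the probe sets of a gene averaged, the changes were -0.63 for Spsb1, -0.58 for Cdk14 and -1.08 for Cd1d1. Changes near that of Cd200 follow from how these genes were chosen and are given without a test, and likeness over 4 arrays describes these arrays alone.

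Markers of other cells were read beside these results, since in bulk RNA fewer cells of a type and less RNA per cell cannot be told apart. Of 7 measured neutrophil markers 5 fell and none rose, and their summed linear level was 1436 on each SAHA array, against 3104 and 2945 on the control arrays. Those that fell were Ngp, S100a8, S100a9, Camp and Ltf, whereas Elane and Mpo did not pass (limma adjusted p = 0.411 and 0.0727). S100a8 gave most of the sum on each array, at 9.92 and 9.85 log2 units with SAHA, against 10.78 and 10.64 in control cells. Neutrophils also carry several of the receptors above, and the part of this marker shift in the changes of the members was not tested. None of 9 macrophage markers passed (1 at an unadjusted p under 0.05), with sums of 41608 and 52590 with SAHA, against 43592 and 52962 in control cells. The 1 was Mertk, at 8.92 and 9.29 log2 units with SAHA, against 10.02 and 10.03 in control cells. Its log2 change was -0.92 (adjusted p = 0.0509), without overlap. Of the 9 macrophage marker changes 6 were below 0 and 3 above. None of 9 lymphocyte and NK cell markers passed (1 at an unadjusted p under 0.05, Cd79a), with sums of 335 and 348 with SAHA, against 343 and 401 in control cells, and none of 3 erythroid markers did (0 unadjusted). Of the dendritic cell markers Irf4, a transcription factor of these cells, rose (log2 change 0.81, adjusted p = 0.0431), none fell and 9 did not pass (2 at an unadjusted p under 0.05, Irf4 and Ciita). Ciita, the regulator of MHC class II genes, gave 1.09 (adjusted p = 0.0759) without overlap. The marker sums were 62858 and 64118 with SAHA, against 63144 and 61299 in control cells.

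**Figure D5:**
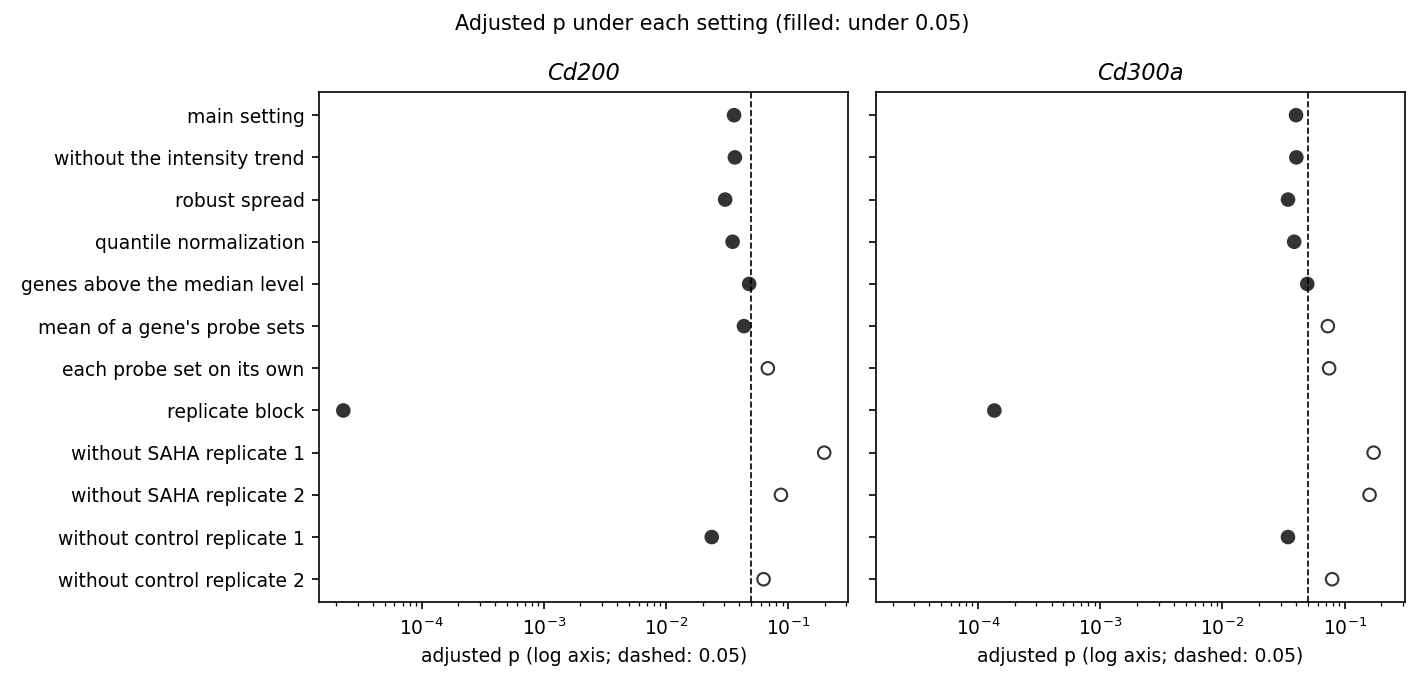
Adjusted p of Cd200 (left) and Cd300a (right) on a log axis under the main setting and each alternative (rows), filled where under 0.05 (dashed line). Both calls are lost without SAHA replicate 1, SAHA replicate 2 or control replicate 2 and with every probe set tested on its own, and that of Cd300a also with probe sets averaged.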

How the data were processed

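The table the authors deposited holds log2 values, 1 per probe set and array, a scale read from the values themselves (2.59 to 14.97). The submitters' processing notes name R 2.7, and the summarisation and normalization methods are not given in the sources used here. Per the labels' protocols, biotinylated cRNA was made from 6 µg of total RNA. Array medians lay within 0.0118 of each other and were not normalized again. No read depth exists for arrays.

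Of 45101 probe sets 34958 had 1 gene symbol, 932 several and 9211 none in the platform annotation, and symbols were updated through the Entrez identifier (34754 matched to RefSeq). SAHA and control arrays, grouped by their titles, were set against each other in limma (3.58.1, under R 4.3.3) by lmFit and a two-sided moderated test, with eBayes following the intensity trend, over 18194 genes, and over 45037 probe sets, without the 64 control probe sets, for shared or further probe sets. The fit was tested on simulated data, with arrays drawn independently. It called 25.6% of 2-fold and 75% of 4-fold changes over 5 draws, and 1.57% of its calls were false. Folds are ratios after undoing the log2. All members, the 3 genes per list with the largest change (those past the threshold first) and the 3 profiles nearest Cd200 were named, and Tyrobp, Dok1, Rasa1, Ptpn11, Inpp5d, Irf4, Ciita, the B cell markers and the chromosomal neighbours after their values were seen. The members and lists were chosen with earlier results of these data known. List genes with no probe set of their own were not analysed here. Promoters came from RefSeq (GRCm38.p6), which matched 7 of the 10 members.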

Additional observations from a re-analysis of the deposited data

How the results depend on the processing

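Over 24 named genes and 11 alternatives, 199 of 264 values kept their direction and their side of the threshold, 46 lost a call, 13 gained one and 6 changed sign. Only genes past the threshold in the main setting could lose a call, and the 199 also hold values of genes with no call to lose. The number of genes past the threshold was 405, and 226 among genes above the median level alone (fewer genes tested), 242 with each probe set on its own (a count of probe sets), 274 with probe sets averaged, 3616 with a replicate block and 31 to 529 as single arrays were left out. Of the members, 1 passed with probe sets averaged (Cd200, with Cd300a at 0.68), 0 with each probe set on its own, where Cd200 stayed at -1.10 and Cd300a at 0.95 (limma, 3 at an unadjusted p under 0.05), and 4 with the replicate block, namely Cd200, Sirpa, Cd300a and Lair1. The block also brought Sirpb1a, Clec4a2, Fgr, Mag, Thbs1, Apoe and Cdk14 past the threshold (adjusted p of 1.05e-05 to 0.00611), Apoe at -0.69. Leaving out single arrays gave 0 to 2 members (2 to 4 at an unadjusted p under 0.05), with Cd200 at -1.25 to -0.95 and Cd300a at 0.83 to 1.07. The lone array of a group is then assumed to vary like the other group. In those fits signs changed for Pirb (-0.607 to 0.0551, above 0 without SAHA replicate 1), Ptpn6 (-0.0901 to 0.0486, above 0 without SAHA replicate 2), Cd47 (-0.0509 to 0.260) and Havcr2 (-0.0965 to 0.391), both below 0 without control replicate 1, and Apoe (-2.0004 to 0.611, above 0 without SAHA replicate 1 or control replicate 2). The labels do not tie replicate numbers to shared cultures, so the block decided no call. Deviations of same-numbered arrays from their group means correlated at 0.567 across genes. The calls of Cd200r3, Cd200r4, Milr1, Dok2 and Src were lost with each probe set on its own (adjusted p of 0.0545 to 0.0851) and the first 3 of these among genes above the median level (0.0513 to 0.0555). That of Cd200r3 was also lost with quantile normalization (0.0662), and those of Cd200r4 (0.0509) and Milr1 (0.0565) with probe sets averaged. Without control replicate 2 Fgr (0.0291), Mag (0.0381) and Thbs1 (0.0354) passed. Beyond the number of genes or arrays tested, the cause of these shifts was not tested. Signal over background was not analysed here.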
